A study of Hordeum vulgare with 10 samples.

Results

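Gene expression was compared between roots and shoots of unstressed barley. The 5 libraries of plants kept at 22 °C, 2 from roots and 3 from shoots, were taken from a series of 10, and the remaining 5 came from plants heated to 35.5 °C. All plants were of the spring cultivar Rolap and 2 weeks old, with no transgene or mutation named, and control plants were collected together with plants given 1 h of heat. RNA was enriched with oligo(dT) and sequenced with strand-specific libraries. The authors deposited 1 table for each tissue, and 24312 gene identifiers stood in both tables. The mean of each gene over the control libraries was divided by the total of its tissue over these genes and multiplied by 1000000. This value, called the level (CPM, counts scaled to a total of 1000000), is a share of the reads in genes of that tissue. It is not corrected for gene length, so that an order of genes within a tissue is an order by reads and not by transcripts.

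Roots take up water and inorganic phosphate (Pi) from the soil, and shoots carry out photosynthesis and receive Pi through the xylem. Pi enters root cells through PHT1 transporters, is loaded into the xylem with the help of PHO1, and can be stored in the vacuole. Transcription factors of the PHR family switch on genes of Pi starvation, whereas PHO2 and NLA mark Pi transporters for degradation in Arabidopsis. The tables were normalized separately for the tissues. A level therefore compares shares of 2 pools of reads, and a gene at the same number of molecules per cell takes a smaller share where a few other genes take more.

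Whole reads per library could be worked back from the deposited means, which carry 15 digits. They came to 16828645 and 16140995 reads in genes in the control roots and to 10939204, 10519060 and 10104875 in the control shoots. With the genes that could not be split added at their means, the shoot libraries came to between 14934630 and 16543904 reads. In shoots, the means of 40 genes could not be split into libraries. These 40 genes held 33.1% of the shoot level and include the 10 highest ones, so that they have a mean but no value per library and no test. The libraries carry no replicate letter and are numbered here by decreasing size factor, which is the scaling factor of a library in its table. Biological replicates are stated for both tissues. The median chi-square between 2 libraries of a tissue was 2.76 to 5.61 times that of sampling noise, and no library was a repeat of another. The root labels fit genes known from root Pi uptake and xylem loading. PHT1;1 had 982 and 989 reads in the root libraries and no read in any shoot library. PHT1;4 had 2597 and 3218 root reads and 2 or 3 in each shoot library. PHO1 had 581 and 542 root reads and 14, 8 and 12 shoot reads. The tissue pattern of these genes given below is the same observation and not a separate one. For shoots, no marker with an identifier was at hand.

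Root library 1 stood apart from root library 2 in the genes that were highest in shoots. MLOC_64679, the gene with the second highest level in shoots, had 158 reads in root library 1 and 16 in root library 2. MLOC_44511 had 40 and 4 reads, MLOC_78630 34 and 5, MLOC_20487 30 and 6, and MLOC_69498 34 and 7. As a share of the shoot level, these 5 genes reached from 0.0192% to 0.0277% in root library 1 and from 0.00229% to 0.00424% in root library 2. The other 5 of the 10 highest shoot genes differed less between the root libraries. MLOC_43331, for example, had 704 and 559 reads. The part of this difference in the ratios below was not tested, and ratios that rest on it are given with both libraries.

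The level of shoots was concentrated in far fewer genes than that of roots. The 10 highest genes held 4.07% of the level in roots and 19.4% in shoots, and the 100 highest genes held 16.7% and 43.5%. In roots 1053 genes were needed to reach 50% of the level, in shoots 180. The effective number of genes, which is the number of equally expressed genes with the same Shannon entropy, was 5412 in roots and 1373 in shoots.

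**Figure D1:**
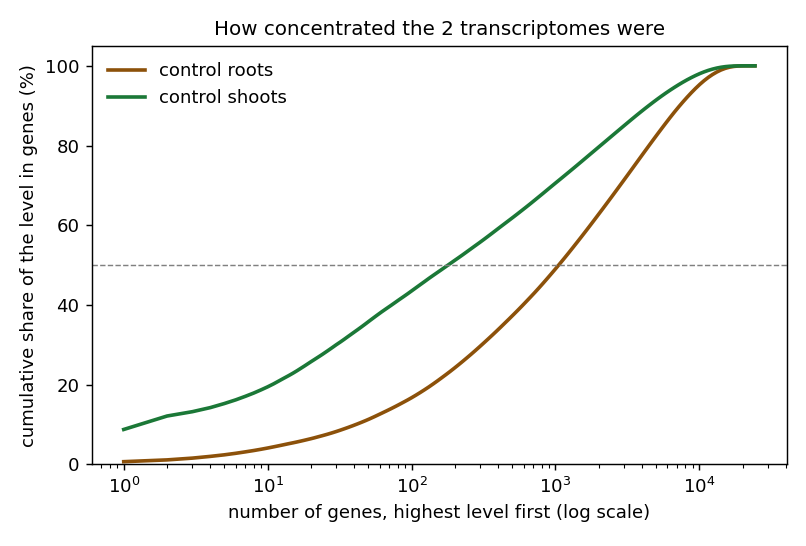
Cumulative share of the level (percent) against the number of genes, highest first, on a log axis, for the mean of 2 control root libraries and the mean of 3 control shoot libraries. The dashed line marks 50%, which shoots crossed at 180 genes and roots at 1053.

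The plot of cumulative shares shows the curve of shoots above that of roots over its whole rise. In the single libraries, the number of genes for 50% of the level was 1056 and 1043 in roots and 182, 180 and 175 in shoots. The 100 highest genes of each library held 16.6% and 16.8% in roots and 43.6% in each of the 3 shoot libraries. The tissues did not overlap in either measure. A two-sided exact permutation test over the 5 libraries gave p = 0.2 for both measures. With 2 against 3 libraries there are few possible splits, so that the test cannot give a small p and no conclusion is drawn from it. The spread between shoot libraries is understated, because the 40 genes without a split entered each library with their mean. Reads with more than 1 alignment, which the gene counts leave out, made up 2.82% of the normalized reads of control roots and 21.9% of those of control shoots. Their part in the concentration was not tested.

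A single identifier made up 8.73% of the shoot level. EPlHVUG00000010074 had a level of 87320 CPM in shoots and of 27.7 and 15.2 CPM in root libraries 1 and 2. It belongs to 101 identifiers that start with EPlHVUG, of which 48 reached 1 CPM in shoots and 11 in roots. Together these identifiers held 9.52% of the shoot level and 0.0233% of the root level. Without EPlHVUG00000010074 they still held 0.789% in shoots. Without this gene, 265 genes were needed for 50% of the shoot level and the 100 highest genes held 38.2%, which is above the 16.7% of roots. The sources used here give no name for these identifiers.

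None of the 10 highest genes was shared between the tissues. Of the 100 highest genes 7 were shared, and of the 1000 highest genes 377. The 10 highest shoot genes held 19.4% of the shoot level and 0.00853% of the root level, whereas the 10 highest root genes held 4.07% of the root level and 1.22% of the shoot level. For the 1000 highest genes the order was the other way round, as those of shoots held 30.7% of the root level and those of roots 17.5% of the shoot level. After EPlHVUG00000010074, the highest shoot levels were those of MLOC_64679 (33766 CPM) and MLOC_44511 (10892 CPM). MLOC_64679 had 9.34 and 0.996 CPM in the root libraries. MLOC_44511 had 2.36 and 0.249 CPM there. Among the 10 highest shoot genes, MLOC_43331 had the smallest ratio, with 10158 CPM in shoots and 41.6 and 34.8 CPM in roots, which is 266-fold.

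The highest gene of roots, MLOC_69140, had 6590 and 6379 CPM in the root libraries and a mean of 3727 CPM in shoots, where it was the 30th gene by level. MLOC_73301 had 3361 and 5592 CPM in roots and 1305, 1638 and 1547 CPM in shoots. MLOC_76000 had 4402 and 4516 CPM in roots and 1204, 1262 and 1152 CPM in shoots. For MLOC_73301 and MLOC_76000, both root libraries were above the 3 shoot libraries, which were all above 1000 CPM. Under the median-ratio scaling described below, their log2 differences from limma were 0.22 and 0.57, and neither gene was called. MLOC_7079, MLOC_12446 and MLOC_64900 were below 1000 CPM in shoots, with means of 741, 715 and 369 CPM. With the same scaling, MLOC_12446 (1.29) and MLOC_64900 (1.80) were called higher in roots, whereas MLOC_7079 (0.74) was not called. MLOC_43759 had the lowest shoot level among the 10 highest root genes, with 4300 and 3333 CPM in roots and 33.9, 131.5 and 25.9 CPM in shoots. Its shoot libraries differed more than those of the other 8 root genes split in all libraries, with library 2 high, and the ratio of the means was 59.9-fold. The test described below gave MLOC_43759 a log2 difference of 6.25 with a standard error of 0.60, the largest standard error among these genes. Under the median-ratio scaling the difference was 4.94, and MLOC_43759 was called higher in roots.

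Most genes took a larger share of the reads in roots than in shoots. Of the 24312 genes, 19915 had reads in both tissues, 1492 in roots alone, 806 in shoots alone and 2099 in neither. A level of at least 1 CPM was reached by 17641 genes in roots, by 15497 in shoots and by 14267 in both. Among the 18871 genes with at least 1 CPM in either tissue, 14812 had the higher level in roots and 4059 in shoots. The median log2 ratio of roots to shoots was 1.42, which is 2.68-fold.

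**Figure D2:**
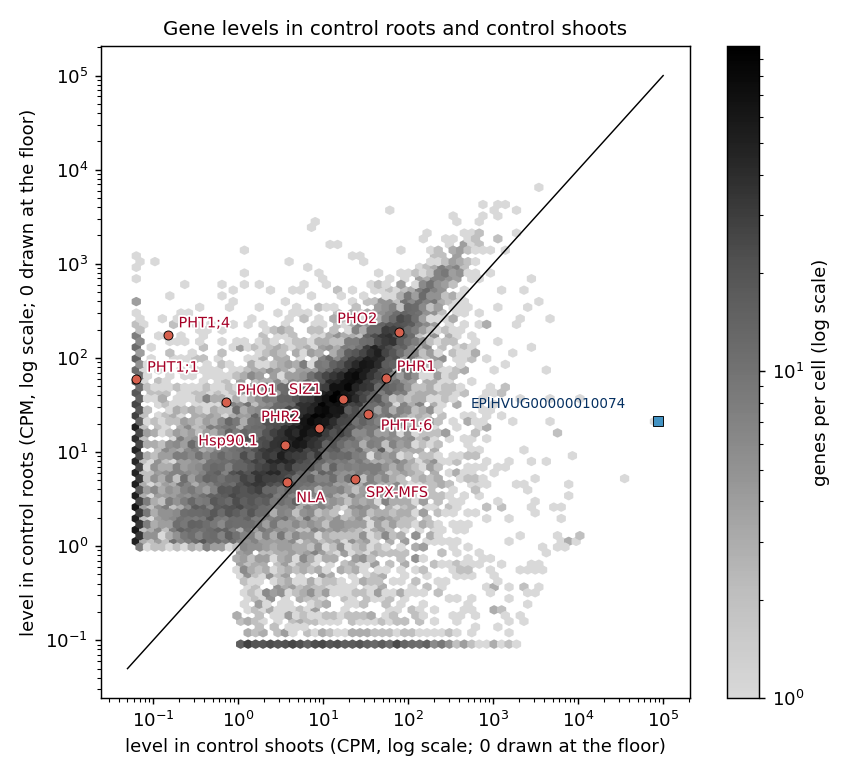
Level in control roots against level in control shoots (CPM, both axes log) for the 18871 genes with at least 1 CPM in either tissue, as counts of genes per cell (grey, log scale). The line marks equal levels, a level of 0 is drawn at the floor of 3 reads, and the named Pi-related genes, Hsp90.1 and EPlHVUG00000010074 are marked. The bulk of genes lies above the line, at a median of 2.68-fold, while the highest levels of all lie far to the right at low root levels.

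The plot of both levels shows this shift of the bulk and a long arm of shoot genes that were near 0 in roots. The shift was found for low and for high genes, but not for the highest ones. The median log2 ratio was 1.53 for genes with a higher level of 1 to 10 CPM, 1.40 for 10 to 100 CPM and 1.39 for 100 to 1000 CPM. For the 188 genes above 1000 CPM it was -3.42, and 54.8% of these were at least 2-fold higher in shoots. Across the 18871 genes, the levels of both tissues had a Pearson correlation of 0.45 on the log2(level + 1 CPM) scale and a Spearman correlation of 0.50, as a description over genes that are not independent. On the same scale, the Pearson correlation between the 2 root libraries was 0.99. Pairs of libraries were compared over the 6727 genes split in all control libraries and with at least 10 CPM in both tissues. The median absolute log2 ratio was 0.11 to 0.14 between libraries of a tissue and 1.27 to 1.33 between a root and a shoot library. The values between the tissues include the shift of the bulk toward roots, which depends on scaling to the total. They were not drawn up under another scaling.

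The genes that differed strongly carried a large part of the shoot level but a small part of the root level. The 1589 genes at least 10-fold higher in shoots held 56.8% of the shoot level and 0.441% of the root level. In the other direction, 2939 genes were at least 10-fold higher in roots, and they held 13.9% of the root level and 0.412% of the shoot level. The 591 genes more than 100-fold higher in shoots alone held 46.8% of the shoot level. Roots drew most of their level, 66.2%, from 8956 genes that were 2- to 10-fold higher there. Levels within 2-fold of each other were found for 4082 genes, 21.6% of the 18871. These classes include the median shift of 2.68-fold toward roots, which depends on scaling to the total. They were not drawn up under another scaling, so that 21.6% is no general measure of how alike the tissues were.

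**Figure D3:**
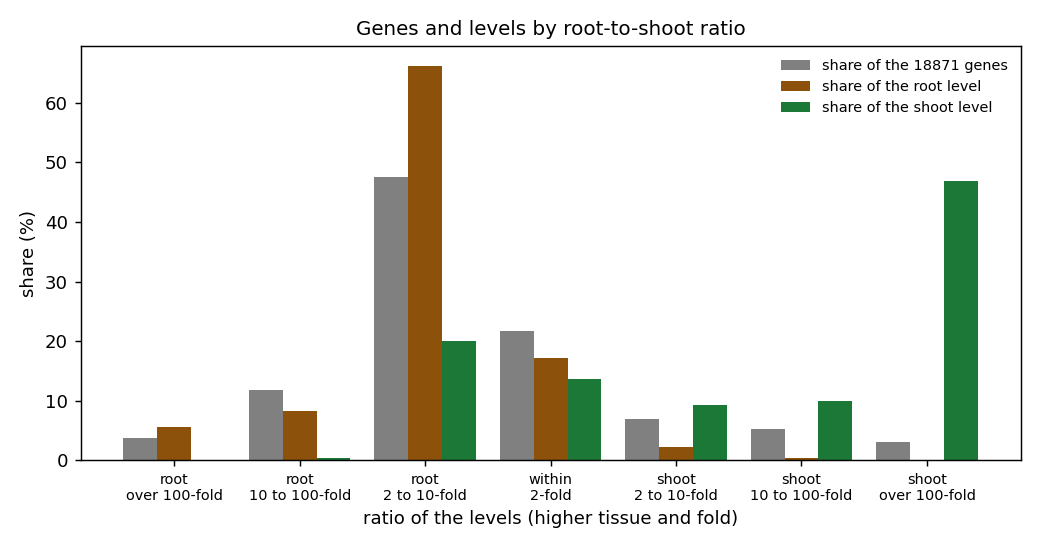
Share (percent) of the 18871 genes, of the root level and of the shoot level in 7 classes of the ratio between the tissues. The class of genes more than 100-fold higher in shoots holds 3.13% of the genes and 46.8% of the shoot level, and the class 2- to 10-fold higher in roots holds 66.2% of the root level. Ratios are of levels scaled to the total of each tissue and include the shift of the bulk toward roots.

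The recovered libraries were tested with limma on log2(level + 1 CPM), a scale that understates the change of low genes. Of 18831 genes tested, 10955 were called higher in roots (58.2%) and 2693 higher in shoots (14.3%) at an adjusted p under 0.05 (Benjamini-Hochberg) and at least 2-fold, together 72.5%. The median log2 difference over all genes tested was 1.21 toward roots. For 10951 of the genes called higher in roots and all 2693 called higher in shoots, the root and shoot libraries did not overlap. Over all genes tested, both root libraries were above the 3 shoot libraries for 14171 genes and below them for 3577. These counts come from the same libraries as the calls, so that they add no support to them.

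The split between the directions depended on the scaling. When libraries were scaled by the median ratio over genes, 3928 genes were called higher in roots and 4350 higher in shoots, with a median log2 difference of 0.06. When the total was taken without the 100 highest genes of each tissue, the calls were 6867 and 3308, with a median of 0.67. All of these root calls were among the 10955, all 2693 shoot calls were kept under both scalings, and no gene was called in the opposite direction. Both scalings divided root libraries by larger factors than shoot libraries, 1.73 to 1.75 against 0.69 to 0.70 for the median ratio. Every gene thus moved toward shoots, so that this nesting largely follows from the scalings and is no separate support for the calls. Because the split depends on the scaling, differences of single genes are also given relative to the median of 1.21. Tissue cannot be told apart from the separate tables.

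**Figure D4:**
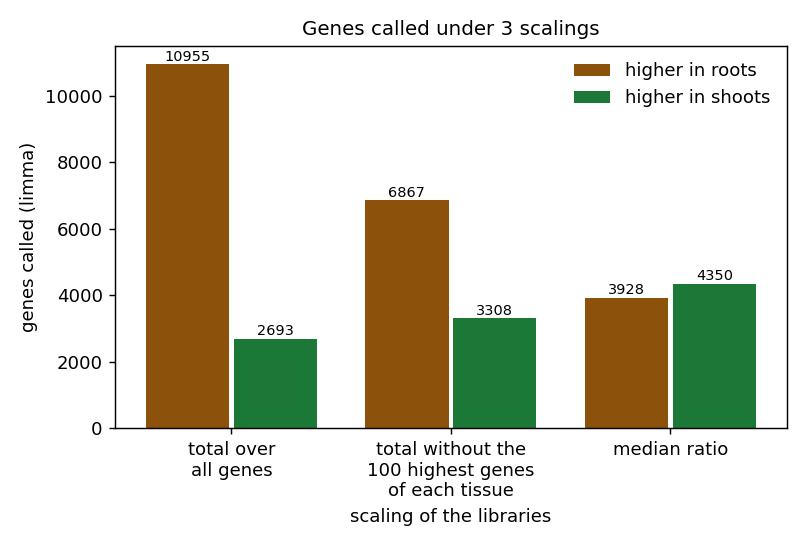
Number of genes called higher in roots and higher in shoots by limma under 3 scalings of the 5 control libraries. Root calls go from 10955 to 3928 and shoot calls from 2693 to 4350 between scaling to the total and scaling to the median ratio.

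Leaving out each library in turn gave 10867 to 10978 genes higher in roots and 2645 to 2714 higher in shoots. The heated libraries took no part in these calls. Of the genes called higher in roots, 10841 had the higher mean in heated roots than in heated shoots, 8474 of them by at least 2-fold. Of the genes called higher in shoots, 2666 were also higher in heated shoots, 2440 of them by at least 2-fold. When the heated libraries were tested with limma in the same way, 8475 of the root calls and 2433 of the shoot calls were made again, and 13 genes were called in the opposite direction. Over all 18298 genes tested there, 9268 were called higher in roots (50.7%) and 2841 higher in shoots (15.5%). The median log2 difference was 1.02 toward roots, so that the counts in heated plants include a shift of the bulk as well.

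Genes with at least 1 CPM in 1 tissue and no read in the other were found in both directions, with more of them in roots. Such genes are called restricted here. There were 632 of them in roots, with a median of 7.55 CPM and 1.82% of the root level, and 245 in shoots, with a median of 9.25 CPM and 0.861% of the shoot level. The limit that a count of 0 allows is 3 reads over the group, which is 0.0635 CPM in shoots and 0.0910 CPM in roots, for counting error only. All 632 and all 245 genes had reads in every library of their own tissue. At the threshold of 1 CPM, 87 more root genes and 60 more shoot genes had from 0.5 to 1 CPM and no read in the other tissue.

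The highest restricted gene of roots was MLOC_67076, with 1245 and 1407 CPM in the root libraries and no read in the 3 shoot libraries. Its root mean was at least 20895-fold higher than the limit of 3 shoot reads. MLOC_75528 had 1126 and 1018 CPM in roots, and MLOC_66094 had 902 and 935 CPM. MLOC_32238 (523 and 336 CPM) and MLOC_25672 (467 and 391 CPM) followed. None of these 5 genes had a read in a control shoot library, which is the rule that chose them. All 5 had reads in heated shoot libraries, from 0, 1 and 0 for MLOC_25672 to 7, 5 and 0 for MLOC_67076.

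In shoots, MLOC_55453 was the highest restricted gene, with 990 CPM in library 1, 1161 CPM in library 2 and 1353 CPM in library 3. Its shoot mean was at least 12834-fold higher than the limit of 3 root reads. MLOC_74910 had 440, 419 and 513 CPM, and MLOC_5908 had 272, 276 and 333 CPM. MLOC_38658 had 314, 374 and 173 CPM, with library 3 low, and MLOC_30215 had 227, 263 and 273 CPM. All 5 were without a read in both control root libraries, which is the rule that chose them. In the heated root libraries all 5 had reads, such as 1 and 1 for MLOC_30215, 5 and 2 for MLOC_55453 and 1 and 6 for MLOC_74910. No name stands beside these 10 identifiers in the sources used here.

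A count of 0 reads depends on depth and on the library. Leaving out a library gave 625 to 747 genes restricted to roots and 243 to 363 restricted to shoots. The 363 were reached without root library 1 and 334 without root library 2. Of the 632 root genes, 475 were also without reads in the 3 heated shoot libraries, and 157 had reads there. Of the 245 shoot genes, 154 were without reads in the 2 heated root libraries and 91 had reads there, at most 0.337 CPM.

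Among genes with more than 3 reads in the other tissue, the largest ratios rested on few reads there. MLOC_74048 had 1073 and 1054 CPM in roots and 1, 4 and 0 reads in the shoot libraries, a ratio of the means of 10209-fold. MLOC_39668 had 436 and 516 CPM in roots and 1, 7 and 0 reads in shoots. MLOC_54892 (569 and 659 CPM in roots) had 6, 3 and 2 reads in shoots. Counting error alone leaves the order of these ratios unresolved. MLOC_69795 and MLOC_13009 followed, with 4 and 6 shoot reads in all. In the other direction, MLOC_23006 had 2496, 2561 and 1582 CPM in the shoot libraries and 5 and 0 reads in root libraries 1 and 2. MLOC_53370, MLOC_59924 and MLOC_64972 had 4, 6 and 5 reads in root library 1 and none in root library 2. MLOC_52515 had 9 and 2 reads. For 4 of these 5 shoot genes, every root read therefore came from root library 1, and without it they would be restricted to shoots.

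Of the Pi transporters studied, 3 of 5 were called higher in roots and 1 higher in shoots, beside 58.2% and 14.3% of all genes tested. PHT1;1, a high-affinity transporter of Pi uptake, stands under MLOC_28370, whose reads cannot be told apart from those of PHT1;2 and PHT1;9. It had 58.0 and 61.6 CPM in the root libraries and no read in shoot libraries 1, 2 and 3, which makes it at least 943-fold higher in roots. PHT1;4 (MLOC_6187), another member of the high-affinity family, had 153.5 and 200.4 CPM in roots and 0.118, 0.190 and 0.137 CPM in shoots. These shoot values are 2, 3 and 2 reads. The ratio of the means was 1192-fold, and the limma log2 difference was 7.26 (standard error 0.15, adjusted p = 1.27e-08), which is 6.05 above the median of all genes. PHO1 (MLOC_12153) loads Pi into the xylem and had 34.3 and 33.8 CPM in roots and 0.827, 0.507 and 0.823 CPM in shoots. Its log2 difference was 4.36 (standard error 0.15, adjusted p = 1.07e-07 from limma), 3.14 above the median, and the ratio was 47.3-fold. For all 3 genes the groups were far apart and the libraries of a tissue close together.

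SPX-MFS (MLOC_57566), a member of a family that moves Pi across the vacuolar membrane in rice, had the opposite pattern. It had 4.91 and 5.48 CPM in roots and 20.04, 29.3 and 22.3 CPM in shoots, so that each shoot library was above both root libraries. The log2 difference from limma was -1.99 (standard error 0.17, adjusted p = 1.19e-05), and the shoot mean was 4.60-fold higher. Under the median-ratio scaling its log2 difference was -3.12. PHT1;6 (MLOC_80912), a low-affinity Pi transporter in barley, was not called, with 21.9 and 29.2 CPM in roots and 26.5, 41.3 and 33.6 CPM in shoots. Its libraries overlapped between the tissues. The log2 difference was -0.38 (95% confidence interval -0.84 to 0.08, adjusted p = 0.098 from limma). Under the median-ratio scaling PHT1;6 was called higher in shoots, with -1.64, and without the 100 highest genes in the total with -1.001.

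**Figure D5:**
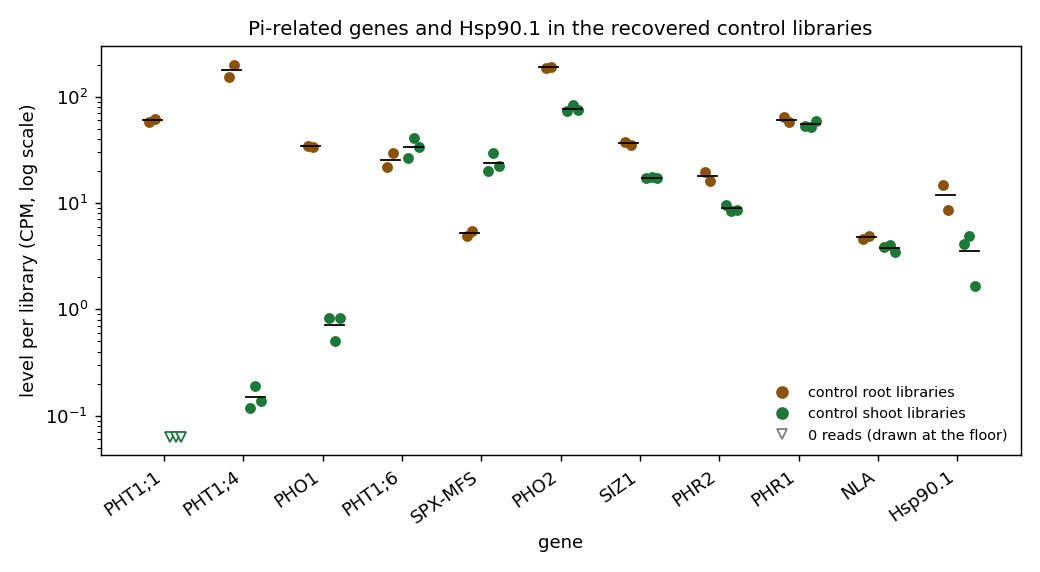
Level per library (CPM, log axis) of the 10 Pi-related genes and Hsp90.1 in the 2 control root and the 3 control shoot libraries. Horizontal lines are the means, and open triangles at the floor stand for 0 reads. PHT1;1, PHT1;4 and PHO1 lie far higher in roots, SPX-MFS lies higher in shoots, and NLA, PHR1 and PHT1;6 lie close together in both tissues.

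The regulators differed much less between the tissues than the 3 root transporters did, as the plot per library shows. PHO2 (MLOC_53410), a ubiquitin-conjugating enzyme, had 186 and 190 CPM in roots and 73.9, 82.9 and 74.8 CPM in shoots. Its log2 difference of 1.27 (standard error 0.09, adjusted p = 4.48e-06 from limma) was called, but it is only 0.06 above the median of all genes and was -0.03 under the median-ratio scaling. SIZ1 (MLOC_38182), a SUMO E3 ligase, had 37.5 and 35.1 CPM in roots and 17.1, 17.5 and 17.0 CPM in shoots. Its log2 difference was 1.03 (standard error 0.10), just past the threshold of 2-fold, and turned to -0.23 under the median-ratio scaling. Without root library 1 it was 0.99 and SIZ1 was not called. Both genes thus lay close to the shift of the whole transcriptome.

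PHR2 (MLOC_60198), a transcription factor of the Pi starvation response, had 19.7 and 15.9 CPM in roots and 9.58, 8.49 and 8.64 CPM in shoots. Its log2 difference was 0.92 (adjusted p = 0.000277 from limma), below 2-fold on this scale, and -0.29 under the median-ratio scaling. Without root library 2 it was 1.06 and PHR2 was called. PHR1 (MLOC_5585), of the same family, had 64.4 and 57.3 CPM in roots and 52.8, 52.3 and 59.1 CPM in shoots. Its libraries overlapped, and the log2 difference was 0.15 (95% confidence interval -0.09 to 0.39), but -0.48 without the 100 highest genes in the total and -1.14 under the median-ratio scaling, where PHR1 was called higher in shoots. NLA (MLOC_52462), a RING-type E3 ubiquitin ligase, had 4.61 and 4.92 CPM in roots and 3.84, 4.06 and 3.43 CPM in shoots. Its root libraries were above all shoot libraries, but the log2 difference of 0.27 (95% confidence interval -0.04 to 0.59, adjusted p = 0.085 from limma) was not called. It was -0.25 without the 100 highest genes in the total and -0.77 under the median-ratio scaling.

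Of all 10 Pi-related genes, 5 were called higher in roots, against 58.2% of all genes tested, and 1 higher in shoots, against 14.3%. Both counts are near these shares. Under the median-ratio scaling, 3 of the 10 genes were called higher in roots (PHT1;1, PHT1;4 and PHO1) and 3 higher in shoots (SPX-MFS, PHT1;6 and PHR1), against 21.3% and 23.6% of the genes tested there. Without the 100 highest genes in the total, the calls were 3 and 2, against 36.7% and 17.7%. Scaled to the total over all genes, their median log2 difference was 0.98, beside 1.21 over all genes. The median was 4.36 for the 5 transporters, whose differences ran from -1.99 to 7.26, and 0.92 for the 5 regulators.

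Hsp90.1 (MLOC_5618), a heat shock chaperone gene used in the study to check the heat treatment, was low in both control tissues. It had 14.9 and 8.66 CPM in roots and 4.14, 4.88 and 1.65 CPM in shoots, with shoot library 3 low. The log2 difference was 1.52 (standard error 0.36, adjusted p = 0.0044 from limma), 0.31 above the median. Under the median-ratio scaling it was 0.41 and not called. Without root library 1 it was 1.16 and not called either.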

How the data were processed

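RNA-seq of control roots (2 libraries) and control shoots (3 libraries) was analysed. Reads were aligned by the authors to the barley genome of Ensembl Plants (082214v1) with TopHat2, assigned to genes with HTSeq and normalized within each tissue with DESeq. Tool versions and the strand setting of the counting were not given in the sources used here. What the authors deposited is a signal value, the mean normalized count of each group, and no value per library. Their columns of fold change, log2 fold change, p-value and adjusted p-value compare heat with control and were not used.

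Lines that name no gene (60.4% of normalized reads in control roots, 66.6% in shoots) were left out. None of the identifiers matched the RefSeq table. The reads of the libraries of a group, each divided by the size factor, add up to its mean times the number of libraries. The low means gave the size factors (1.22 and 1.16 in roots, 1.18, 1.10 and 1.02 in shoots), and 21407 of 21407 root and 20681 of 20721 shoot means were split, 32 of the latter by requiring libraries within 4-fold. Of simulated means, 1971 of 1971 and 1971 of 1973 were split correctly. A level per library was its reads divided by its size factor and the total of its table, so that the scaling between libraries of a tissue stays that of the authors. limma 3.58.1 (R 4.3.3, trend, two-sided) was run on log2(level + 1 CPM) over split genes with at least 1 CPM in either tissue. Tested on simulated data, 83% of the 2-fold and 99% of the 4-fold differences had an adjusted p under 0.05 in 17972 genes, as had 4 genes that did not differ. With the threshold of 2-fold added, 32% and 98% were called and 0 unchanged genes. Both simulated tissues had the same profile apart from 100 genes changed at each size, equally in both directions. The simulation therefore does not cover errors from the shift of the bulk between the tissues. P-values measure the spread between these libraries. Other calculations used Python 3.11.15, numpy 2.4.6, pandas 2.3.3, scipy 1.17.1 and matplotlib 3.10.9.

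Named were the 10 Pi-related genes with an identifier, Hsp90.1, the 10 highest genes of each tissue, the 5 highest restricted genes, and the 5 largest ratios in each direction among genes with at least 10 CPM in 1 tissue and more than 3 reads in the other. The members and lists were chosen with earlier results of these data known. Alternatives were other scalings, pseudocounts, filters, fold thresholds, the heated libraries, and leaving out libraries. Leaving out EPlHVUG00000010074 and leaving out libraries for the restricted genes were chosen after seeing the data.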

Additional observations from a re-analysis of the deposited data

Results flagged for a closer look

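Of the 632 genes restricted to control roots, 2 reached 1 CPM in the heated shoots, libraries that the comparison did not use. MLOC_64517 had 1.24 CPM in control roots, no read in control shoots and 17.5 CPM in heated shoots, beside 649 CPM in heated roots. For MLOC_13605 the control roots had 1.88 CPM, the heated shoots 1.53 CPM and the heated roots 18.2 CPM. Of the 245 genes restricted to control shoots, 0 reached 1 CPM in heated roots, where the highest had 0.337 CPM.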

How the results depend on the processing

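Against 10955 genes higher in roots and 2693 higher in shoots, the median-ratio scaling gave 3928 and 4350, the total without the 100 highest genes gave 6867 in roots, a pseudocount of 10 CPM gave 5764 and 1750, and a 4-fold threshold gave 4218 in roots. Of genes restricted to roots (632) and to shoots (245), 389 and 155 remained at 5 CPM, 264 and 116 at 10 CPM, and allowing up to 3 reads in the other tissue gave 1077 and 523. Levels at least 100-fold lower in the other tissue gave 712 genes for roots and 591 for shoots. Of the 632 and the 245 genes, 475 and 154 were also at 0 in the heated mean of the other tissue. Roots had the larger count under each of these rules, but the counts were much closer under the 100-fold rule. Leaving out the 10 highest genes of either tissue changed the share of the 100 highest genes to 14.1% in roots and 31.2% in shoots, the number of genes for 50% of the level to 1162 and 422, and the effective number of genes to 5925 and 2780. In the heated means these were 28.1% and 46.7%, 540 and 132, and 3305 and 1103. Without EPlHVUG00000010074, shoots had 38.2%, 265 and 1981. Shoots were the more concentrated tissue under each of these settings. The median-ratio scaling turned the sign of the log2 difference for SIZ1 (-0.23), PHO2 (-0.030), PHR1 (-1.14), PHR2 (-0.29), NLA (-0.77) and MLOC_75846 (-0.16), and the total without the 100 highest genes turned NLA (-0.25) and PHR1 (-0.48). No paired analysis was possible because the recovered libraries carry no replicate letter. Ratios of genes with few reads in a tissue are limited by depth. The causes of these changes were not tested.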
